A study of Mus musculus with 50 samples.

Results

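Lymph nodes that drain the colon were compared with inguinal nodes, which drain skin, in mice on a diet with vitamin A. The comparison holds 10 of the 50 libraries of the data set, picked by their titles alone: 5 colonic and 5 inguinal nodes of the vitamin A-sufficient arm. All mice were of the C57B6 genotype and carried no engineered allele per the labels, and they were taken at postnatal day 56. Their dams, C57BL/6J females of 7 to 8 weeks, ate a diet with 20 IU/g of vitamin A from 3 weeks ahead of mating, and the pups came from the second and the third litters. The other arm, used here only for comparison, had the same 2 nodes from mice whose dams ate a matched diet without vitamin A. Each sufficient group had females as libraries 1 and 2 and males as libraries 3, 4 and 5, whereas every deficient library was from a female. No label ties the nodes of 1 mouse to each other. Whole nodes were extracted with no cell sort, so a level reflects all cell types in the node and any tissue attached to it. In such bulk RNA, fewer cells of a type and less RNA per cell cannot be told apart.

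A lymph node collects lymph, antigen and migrating dendritic cells from the tissue it drains. Lymphocytes enter it from blood through high endothelial venules, whose surface ligands decide which cells stop there: the mucosal addressin MAdCAM-1 binds the integrin α4β7, and sulphated peripheral node addressin binds L-selectin. Dendritic cells and stroma of gut-draining nodes make retinoic acid from vitamin A, and retinoic acid instils gut homing in T and B cells and favours the switch to IgA. Skin-draining nodes receive Langerhans cells and dermal dendritic cells, and lymphocytes primed in them acquire skin-homing receptors.

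The 10 libraries held between 5335369 and 8904722 estimated counts and between 25117 and 27266 genes with a count. Rank correlations within a node lay between 0.95 and 0.977 for colonic and between 0.96 and 0.98 for inguinal libraries. Summed levels of 8 genes that mark lymph node tissue were 3760 to 4210 in colonic and 3690 to 5530 in inguinal libraries, in CPM, the counts of a gene relative to the library total scaled by TMM. Some libraries stood apart in RNA of neighbouring tissue. The 21 pancreatic acinar genes listed summed to 3450 CPM in colonic library 5 and to 16.7 to 30.4 CPM in the other colonic libraries, against 291 CPM in inguinal library 5 and 12 to 60.3 CPM in the other inguinal libraries. The 17 adipose markers summed to 3190, 2610, 1610, 1650 and 3920 CPM in colonic libraries 1 to 5, against 121, 542, 1880, 519 and 361 CPM in inguinal libraries 1 to 5. Every colonic library lay above every inguinal one except that inguinal library 3 lay above colonic libraries 3 and 4. Mesothelium markers summed to 24.9 to 62 CPM in colonic and 10.7 to 36.4 CPM in inguinal libraries. The highest inguinal sum, in library 2, held 21.3 CPM of the keratin Krt19, against 0.219 to 2.11 CPM of it in the other inguinal libraries.

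**Figure D1:**
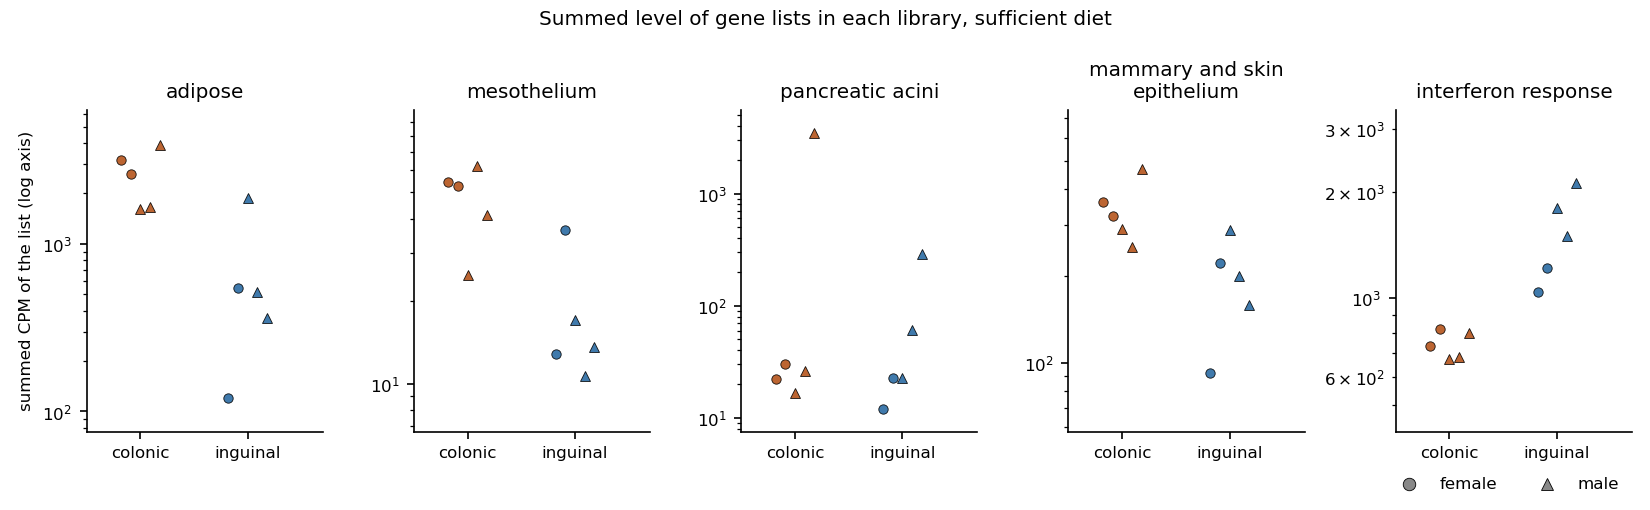
Summed CPM of 5 gene lists in each library on a log axis, with colonic (left) and inguinal (right) nodes of the sufficient diet, circles for females and triangles for males. Adipose and mesothelial sums are mostly higher in colonic nodes, pancreatic RNA stands out in colonic library 5 (3450 CPM) and inguinal library 5 (291 CPM), and interferon response genes lie at 673 to 822 CPM in colonic nodes and 1040 to 2120 CPM in inguinal ones.

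Of 18077 genes tested, 778 (4.3%) differed between colonic and inguinal nodes at a Benjamini-Hochberg adjusted p under 0.05 in edgeR's quasi-likelihood test. Of these, 535 (2.96%) were higher and 243 (1.34%) were lower in colonic nodes, and 273 and 86 of them differed by at least 2-fold. Counts of gene list members below are to be read beside these shares over all genes. Some genes are in more than 1 list, such as Marco and Col14a1, so the counts of different lists are not independent. With the replicate number as a block, 675 were higher and 377 were lower. All 5 colonic libraries lay above all 5 inguinal ones for 490 genes (2.71%) and below them for 299 genes (1.65%). In male libraries alone 138 genes were higher and 138 lower, and in female libraries alone 112 and 28. Values below are the log2 fold change of colonic over inguinal nodes ± its standard error with the adjusted p over all genes tested, and levels are means ± SD in CPM with n = 5 per node. Without colonic library 5, 401 genes were higher and 180 lower. Without inguinal library 5, which gave the lowest total, 373 were higher and 141 lower, and without inguinal library 1, 333 were higher and 191 lower.

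**Figure D2:**
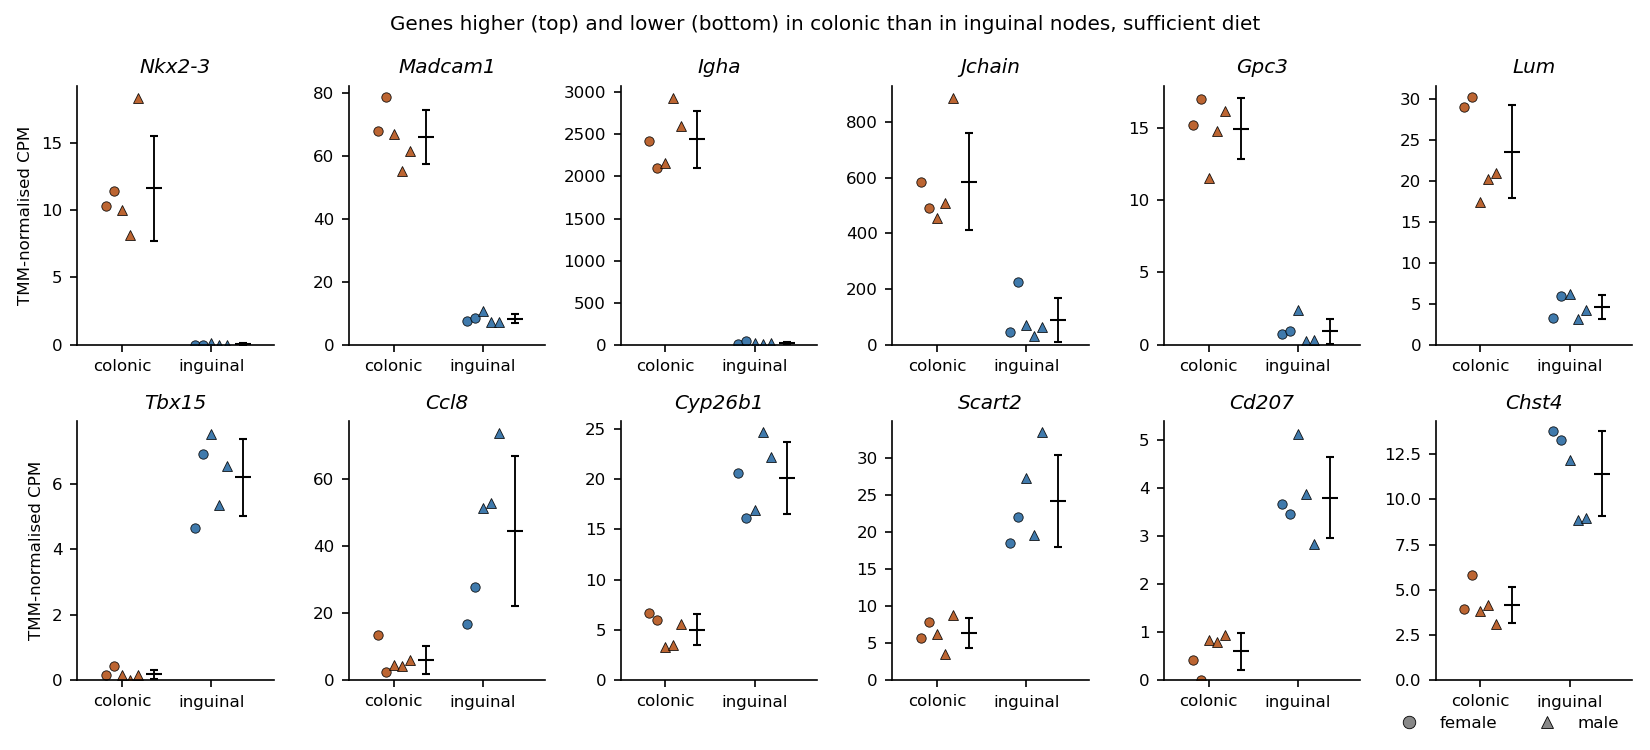
CPM of 12 genes in each colonic (left) and inguinal (right) library, circles for females and triangles for males, with the mean and SD as a bar (n = 5). For the 6 genes of the top row every colonic library lies above every inguinal one, and for the 6 genes of the bottom row every colonic library lies below every inguinal one.

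The addressin of mucosal vessels and the homeobox factor known to act on its gene were higher in colonic nodes, without overlap between the groups. Nkx2-3 (chr19:43612325-43615892 in GRCm38), a homeobox factor of gut and spleen vasculature, measured 10.3, 11.4, 10, 8.12 and 18.3 CPM in colonic libraries, against 0, 0, 0.151, 0 and 0 CPM in inguinal libraries. A single count in inguinal library 3 stood against 383 counts in colonic nodes, a ratio of 433 with a 95% counting interval of 77.3 to 17100 (adjusted p = 1.22e-17). Madcam1 (chr10:79664559-79668537), the addressin itself, measured 67.8, 78.6, 66.8, 55.1 and 61.5 CPM in colonic libraries, against 7.48, 8.45, 10.7, 7.36 and 7.22 CPM in inguinal libraries. The lowest colonic library lay well above the highest inguinal one (3.01 ± 0.233, adjusted p = 9.77e-13). Madcam1 was present in every inguinal library, Nkx2-3 in 1 of them.

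Because Nkx2-3 is known to act on the mouse Madcam1 promoter together with NF-κB, the 250 bases before the start of Madcam1 are shown (RefSeq, GRCm38.p6, chr10:79664309-79664558, plus strand, 5′ to 3′), with capitals on the letters AAGTG, the core that NK-2 homeodomains bind, and on GGGAA followed after any 3 bases by CC, a κB core, both searched on both strands.
Madcam1: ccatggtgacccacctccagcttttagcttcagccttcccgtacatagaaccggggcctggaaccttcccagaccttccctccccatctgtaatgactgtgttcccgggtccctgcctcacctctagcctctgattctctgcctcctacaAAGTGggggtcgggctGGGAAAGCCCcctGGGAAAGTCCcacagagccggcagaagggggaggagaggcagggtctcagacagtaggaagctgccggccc
The NK-2 core lay at bases -100 to -96 and the 2 κB cores at -84 to -75 and -71 to -62, with no overlap. Of 32851 promoters of the same length, 40.7% hold the short NK-2 core and 4.94% the κB core, so the matches describe the sequence and show no binding.

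Several other genes of high endothelial venules were lower in colonic nodes. Of 18 tested genes of venules and addressins, Madcam1 was higher and 5 were lower in colonic nodes (4 or 5 with any 1 library left out), and the median log2 fold change was -0.223, against 0.0049 over all genes. Chst4, the sulphotransferase that completes the L-selectin ligand, measured 3.95, 5.79, 3.83, 4.13 and 3.11 CPM in colonic libraries, against 13.8, 13.3, 12.2, 8.86 and 8.97 CPM in inguinal libraries, with no overlap (-1.46 ± 0.24, adjusted p = 7.28e-05). Ubd, a ubiquitin-like gene used as a venule marker, averaged 20.1 ± 5.39 CPM in colonic nodes and 42.3 ± 14.4 CPM in inguinal ones (-1.07 ± 0.133, adjusted p = 2.6e-07), with colonic library 1 just above inguinal library 4. Gcnt1, which builds the branched glycans of the same ligand, was also lower (-0.58 ± 0.13, adjusted p = 0.00444). Glycam1, a secreted mucin that carries it, was higher in every female library than in every male one of the same node. Female libraries held 672 and 639 CPM in colonic nodes and 1550 and 1960 CPM in inguinal ones. Male libraries held 226, 124 and 91.2 CPM in colonic and 396, 278 and 223 CPM in inguinal nodes. The effect of sex itself was not tested. In females both colonic libraries were below both inguinal ones, and in males the groups overlapped, with colonic library 3 just above inguinal library 5. The fit with its sex term called it (-1.20 ± 0.238, adjusted p = 0.00104), while a fit with no sex term did not. Xist, at 608 to 844 CPM in females, measured 57.1 CPM in colonic and 40.8 CPM in inguinal library 3. In the other male libraries Xist measured 1.53 to 12.4 CPM. A link of this to the level of Glycam1 in library 3 was not tested.

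Positional factors of mesenchyme differed in both directions. Tbx15 (chr3:99240381-99354259), a T-box factor of trunk and limb mesenchyme, measured 0.136, 0.414, 0.137, 0 and 0.155 CPM in colonic libraries, against 4.66, 6.93, 7.55, 5.37 and 6.56 CPM in inguinal libraries. These were 5 counts in colonic and 236 in inguinal nodes, a ratio of 0.024 with a counting interval of 0.00771 to 0.0567 (-5.26 ± 0.702, adjusted p = 1.22e-06). The limb and skin mesenchyme factor Prrx1 averaged 10.7 ± 3.04 CPM in colonic nodes and 21.3 ± 1.31 CPM in inguinal ones (-1.01 ± 0.166, adjusted p = 6.6e-05). Twist1, a basic helix-loop-helix factor of mesenchyme, was lower, at 0.194 ± 0.155 CPM in colonic nodes and 1.37 ± 0.648 CPM in inguinal ones (-2.82 ± 0.735, adjusted p = 0.017), and lost its call without colonic library 1 or colonic library 3 (highest adjusted p = 0.058). The Iroquois homeobox gene Irx3 was higher, at 7.36 ± 2.83 CPM in colonic nodes and 3.54 ± 0.644 CPM in inguinal ones (1.03 ± 0.228, adjusted p = 0.00383). In all, 7 of 20 tested positional factors outside the Hox clusters were higher (4 to 8 with any 1 library left out) and 4 lower (2 to 4). The fewest were higher without colonic library 1 and the fewest lower without colonic library 3.

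Hox genes, whose products set position along the body axis, gave calls in 1 direction. Of 25 tested, 3 were higher in colonic nodes and 0 lower, against 2.96% higher over all genes, and the median was 0.308, against 0.0049 over all genes. Hoxd9 measured 11.4, 13.7, 12.7, 13 and 19.3 CPM in colonic libraries, against 5.93, 8.04, 11, 8.49 and 10.2 CPM in inguinal libraries (0.69 ± 0.179, adjusted p = 0.0164). Its groups did not overlap, although the call was lost without colonic library 5, inguinal library 1 or inguinal library 4 (highest adjusted p = 0.0765). Hoxc4 (0.89 ± 0.226, adjusted p = 0.0138) and Hoxc6 (0.78 ± 0.22, adjusted p = 0.0294) were the other 2, and their groups overlapped. Hoxc4 lost its call without colonic library 2 or inguinal library 4 (highest adjusted p = 0.115), and Hoxc6 without colonic library 1 or 2 or inguinal library 1, 3, 4 or 5 (highest adjusted p = 0.167), so none of the 3 was called without inguinal library 4. The posterior gene Hoxc10 averaged 3.06 ± 0.734 CPM in colonic nodes and 1.99 ± 0.856 CPM in inguinal ones, with a 95% interval of the difference of -0.10 to 1.36 (adjusted p = 0.426). It was nearly absent from the small intestinal nodes, at 0.0276 ± 0.0618 CPM in duodenal, 0.0869 ± 0.0803 CPM in jejunal and 0.206 ± 0.169 CPM in ileal nodes.

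Class-switched antibody genes were higher in colonic nodes. Of 8 tested heavy chain constant genes 4 were higher (3 to 5 with any 1 library left out) and 0 lower. Igha (chr12:113254830-113260236), the constant region of IgA, measured 2420, 2100, 2160, 2930 and 2600 CPM in colonic libraries, against 4.37, 39.5, 22.2, 9.98 and 18.9 CPM in inguinal libraries. Inguinal libraries varied several-fold among themselves and all stayed far below the colonic ones (6.97 ± 0.543, adjusted p = 9.77e-13). Ighg2b measured 1120, 371, 605, 556 and 340 CPM in colonic libraries, against 46.3, 101, 34.1, 7.61 and 35 CPM in inguinal libraries (3.69 ± 0.662, adjusted p = 0.000266). Ighg1 varied widely in colonic nodes, at 608, 71.4, 177, 266 and 1420 CPM, against 19.6, 3.19, 6.04, 9.61 and 15.9 CPM in inguinal nodes, and was still higher (5.46 ± 1.18, adjusted p = 0.00291). Ighe, the IgE gene, measured 20.7, 2.28, 3.7, 1.86 and 36.4 CPM in colonic libraries, against 3.24, 0.277, 0, 0 and 0.109 CPM in inguinal libraries. Its groups overlapped through inguinal library 1, and its call (4.33 ± 1.14, adjusted p = 0.0177) was lost without colonic library 5, inguinal library 4 or inguinal library 5 (highest adjusted p = 0.122).

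Not every isotype followed. Ighm, expressed before switching, averaged 2400 ± 548 CPM in colonic nodes and 2180 ± 471 CPM in inguinal ones, with an interval of the difference of -0.21 to 0.48 (adjusted p = 0.793). Ighg2c measured 116, 59.4, 13.3, 133 and 29.8 CPM in colonic libraries, against 88.9, 112, 12.4, 6.12 and 9.19 CPM in inguinal libraries, so the nodes overlapped (adjusted p = 0.739). Ighg3 averaged 97.8 ± 57.9 CPM in colonic nodes and 24.7 ± 30.5 CPM in inguinal ones. It missed the threshold (1.84 ± 0.598, adjusted p = 0.0691) and passed with the replicate block (adjusted p = 0.0209). Among variable-region genes, Ighv1-7 reached 552 CPM in colonic library 1 and 10.6 to 84.2 CPM in the other colonic libraries, against 1.97 to 4.37 CPM in inguinal libraries (5.19 ± 0.962, adjusted p = 0.00045). Ighv7-3 measured 13.4 to 37 CPM in colonic and 0.831 to 1.53 CPM in inguinal libraries (4.61 ± 0.63, adjusted p = 2.09e-06). Near-identical immunoglobulin genes share reads, so the split of counts among them is uncertain.

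Some genes of antibody-secreting cells were higher too. Jchain, the chain that joins IgA dimers, measured 584, 491, 457, 511 and 886 CPM in colonic libraries, against 46.8, 226, 70.2, 31.4 and 63.1 CPM in inguinal libraries (2.72 ± 0.442, adjusted p = 5.81e-05). Inguinal library 2 was the highest of its group and still below every colonic library. Derl3, of the secretory stress response, averaged 13.8 ± 1.68 CPM in colonic nodes and 3.79 ± 2.06 CPM in inguinal ones (1.83 ± 0.415, adjusted p = 0.00464). Of 20 plasma cell genes 6 were higher and 0 lower, against 2.96% and 1.34% over all genes, and the median was 0.325. That count was 3 to 7 with any 1 library left out, with 3 without colonic library 1, and it was 2 without colonic library 5 and inguinal library 5 together. Hsp90b1, the chaperone GRP94, measured 942 CPM in colonic library 5 and 591 to 669 CPM in the other colonic libraries, against 425 to 527 CPM in inguinal libraries (0.53 ± 0.121, adjusted p = 0.00555). Without colonic library 5 and inguinal library 5, the ones with the most pancreatic RNA, its value was 0.41 (adjusted p = 0.0868). The part of pancreatic RNA in the plasma cell genes was not tested further.

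Of 17 germinal centre genes 3 were higher and 1 lower, against 2.96% and 1.34% over all genes, with a median of 0.284. Rgs13, a regulator of G-protein signalling in germinal centre B cells, was higher (2.08 ± 0.563, adjusted p = 0.0223), and lost its call without colonic library 1 or 5 or inguinal library 3, 4 or 5 (highest adjusted p = 0.091). No member was called higher without colonic library 1, or without colonic library 5 and inguinal library 5. General B cell genes gave 0 calls of 15 in either direction, with a median of -0.153, and 0 of 18 cell cycle genes were called, with a median of 0.192.

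Enzymes of vitamin A metabolism were among the genes higher in colonic nodes. Aldh1a2 (chr9:71215789-71296243), which turns retinal into retinoic acid in dendritic cells and stroma of the gut, measured 13.3, 17.6, 16.3, 20.2 and 19 CPM in colonic libraries, against 2.4, 1.94, 2.87, 3 and 2.62 CPM in inguinal libraries. The groups lay far apart (2.74 ± 0.32, adjusted p = 7.39e-08). Lrat (chr3:82892579-82903973), which esterifies retinol for storage, measured 10.3, 6.62, 5.89, 10.4 and 10.1 CPM in colonic libraries, against 1.69, 1.25, 2.57, 1.37 and 1.09 CPM in inguinal libraries (2.46 ± 0.289, adjusted p = 8.72e-08). Stra6, which imports retinol (2.09 ± 0.304, adjusted p = 7.83e-06), the retinal reductase Dhrs3 (0.85 ± 0.166, adjusted p = 0.000878) and the related dehydrogenase Aldh1a3 (1.17 ± 0.247, adjusted p = 0.00236), were higher as well. Cyp26b1 (chr6:84571414-84593908), which degrades retinoic acid, was lower, at 6.67, 6, 3.29, 3.46 and 5.59 CPM in colonic libraries, against 20.6, 16.1, 16.9, 24.7 and 22.2 CPM in inguinal libraries (-2.0 ± 0.328, adjusted p = 6.43e-05). Of 13 tested retinoid metabolism genes, 6 were higher (5 to 7 with any 1 library left out) and only Cyp26b1 was lower, with a median of 0.853.

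Receptors and responders of retinoic acid gave fewer calls. Of 13 tested receptors and response genes, 3 were higher (1 to 3 with any 1 library left out, 1 of them without colonic library 2) and 0 lower, with a median of 0.138. Hic1, a repressor induced by retinoic acid in lymphocytes and dendritic cells, averaged 11.5 ± 1.15 CPM in colonic nodes and 6.15 ± 0.997 CPM in inguinal ones (0.89 ± 0.156, adjusted p = 0.000185). The small intestinal homing receptor Ccr9 averaged 34.4 ± 4.62 CPM in colonic nodes and 38.4 ± 9.34 CPM in inguinal ones, with an interval of the difference of -0.43 to 0.14 (adjusted p = 0.717).

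Homing receptors differed in both directions. Gpr15, the receptor that guides T cells to the colon, measured 2.72, 3.31, 3.83, 3.2 and 3.88 CPM in colonic libraries, against 1.83, 1.66, 0.906, 2.12 and 1.75 CPM in inguinal libraries (1.01 ± 0.182, adjusted p = 0.000709). Cxcr6, a receptor of resident and effector T cells, averaged 19.4 ± 4.07 CPM in colonic nodes and 32.2 ± 4.01 CPM in inguinal ones (-0.73 ± 0.141, adjusted p = 0.000749). Ccr2, of monocytes and effector cells, averaged 18.9 ± 4.49 CPM in colonic nodes and 35.9 ± 7.89 CPM in inguinal ones (-0.92 ± 0.146, adjusted p = 4.36e-05). The homing receptor Ccr10 measured 2.31, 2.07, 2.05, 2 and 2.8 CPM in colonic libraries, against 7.19, 3.6, 4.83, 4.74 and 4.16 CPM in inguinal libraries, with no overlap (-1.13 ± 0.303, adjusted p = 0.0215). It lost its call without colonic library 3, colonic library 4 or inguinal library 1 (highest adjusted p = 0.12). Of 20 tested homing receptors and ligands, 2 were higher and 5 lower, against 2.96% and 1.34% over all genes. The lower count ranged from 2, without inguinal library 1, to 7.

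Some genes of innate-like T cells and of dendritic cells differed between the nodes. Scart2 (chr7:140247284-140300736), a scavenger receptor of IL-17-producing γδ T cells, measured 5.72, 7.86, 6.16, 3.46 and 8.7 CPM in colonic libraries, against 18.5, 22, 27.3, 19.6 and 33.4 CPM in inguinal libraries (-1.93 ± 0.221, adjusted p = 5.04e-08). Its relative Scart1 was lower too (-1.52 ± 0.225, adjusted p = 1.09e-05). Of 11 tested genes of IL-17-producing and innate lymphoid cells 3 were lower, and that count held with each library left out in turn, while the median was -0.0613 and 4 members had a positive sign. Cd207 (chr6:83671215-83677857), the langerin of Langerhans cells and dermal type 1 dendritic cells, measured 0.408, 0, 0.822, 0.799 and 0.932 CPM in colonic libraries, against 3.67, 3.46, 5.13, 3.87 and 2.84 CPM in inguinal libraries (-2.59 ± 0.376, adjusted p = 7.76e-06). Cd209a, the mouse DC-SIGN homologue of monocyte-derived and type 2 dendritic cells, was lower at 3.1 ± 0.484 CPM in colonic nodes and 11.2 ± 3.36 CPM in inguinal ones (-1.84 ± 0.274, adjusted p = 1.1e-05), as was Cd209d (-1.17 ± 0.197, adjusted p = 0.000113). Of 13 tested langerin and type 2 dendritic cell genes 4 were lower and 1 higher, with a median of -0.314. The higher one was Ffar2, a receptor for short-chain fatty acids (0.86 ± 0.234, adjusted p = 0.0233), which lost its call without colonic library 2 or 5 or inguinal library 1 or 2 (highest adjusted p = 0.116). Clec9a, the dead-cell receptor of type 1 dendritic cells, was higher, at 45.4 ± 8.58 CPM in colonic nodes and 26 ± 3.7 CPM in inguinal ones (0.81 ± 0.166, adjusted p = 0.00163). Of 11 type 1 dendritic cell genes 1 was higher, Clec9a, and 1 was lower, Itgae, the integrin chain CD103 that tissue T cells also carry (-0.56 ± 0.135, adjusted p = 0.00837), which lost its call without inguinal library 1 (adjusted p = 0.0622). Of 15 migratory dendritic cell genes Apol7c was the 1 called (0.71 ± 0.156, adjusted p = 0.00346). Over all genes 2.96% were higher and 1.34% lower, so 1 call in a list of 11 or 15 says little about that list.

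All 16 tested T cell genes had a negative log2 fold change, with a median of -0.22. Of them 3 were lower, against 1.34% over all genes (0 to 4 with any 1 library left out, 0 without colonic library 1). Il7r, the interleukin 7 receptor of naive and memory cells, measured 138, 135, 171, 183 and 154 CPM in colonic libraries, against 260, 250, 201, 236 and 185 CPM in inguinal libraries, without overlap (-0.53 ± 0.136, adjusted p = 0.0165). Granzyme genes of cytotoxic cells were lower: Gzma averaged 4.47 ± 1.9 CPM in colonic nodes and 10.8 ± 3.06 CPM in inguinal ones (-1.24 ± 0.3, adjusted p = 0.00867), and Gzmb 1.17 ± 0.641 CPM in colonic nodes and 3.73 ± 1.48 CPM in inguinal ones (-1.60 ± 0.387, adjusted p = 0.00854). All 13 tested cytotoxic genes had a negative sign, 3 passed, and 0 passed without colonic library 5 and inguinal library 5. Foxp3, the factor of regulatory T cells, averaged 20.3 ± 4.57 CPM in colonic nodes and 32 ± 8.06 CPM in inguinal ones with overlap between them (-0.64 ± 0.182, adjusted p = 0.0317). Il7r lost its call without colonic library 1 or 2 or inguinal library 1 (highest adjusted p = 0.0712), and Foxp3 without colonic library 1, 2 or 5 or inguinal library 1 or 4 (highest adjusted p = 0.144).

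Lymphatic endothelial genes were higher in colonic nodes. Of 19 tested, all had a positive sign, 12 were higher (9 to 11 with any 1 library left out) and the median was 0.618. Fcna (chr2:25624666-25628030), ficolin A, a lectin secreted by sinus-lining cells and macrophages, measured 28.6, 44.3, 22.2, 30.1 and 53.6 CPM in colonic libraries, against 4.37, 2.63, 3.17, 4.24 and 3.61 CPM in inguinal libraries (3.30 ± 0.255, adjusted p = 9.77e-13). Marco, a scavenger receptor of medullary sinus endothelium and macrophages, averaged 803 ± 155 CPM in colonic nodes and 263 ± 46.5 CPM in inguinal ones (1.62 ± 0.185, adjusted p = 4.84e-08). Ednrb, an endothelin receptor, averaged 20.7 ± 2.49 CPM in colonic nodes and 7.24 ± 1.04 CPM in inguinal ones (1.51 ± 0.244, adjusted p = 5.35e-05). The hyaluronan receptor Lyve1 (0.82 ± 0.145, adjusted p = 0.000214), the sinus scavenger receptor Stab2 (0.82 ± 0.154, adjusted p = 0.000549) and the valve factor Foxc2 (1.31 ± 0.247, adjusted p = 0.000549) rose as well. For each of these 6 genes every colonic library lay above every inguinal one.

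Macrophage genes split. Cd5l, a macrophage-secreted survival factor, averaged 39.9 ± 24.8 CPM in colonic nodes and 13.5 ± 4.37 CPM in inguinal ones (1.49 ± 0.337, adjusted p = 0.0046), and Csf1r, the growth factor receptor of the lineage, 293 ± 19.1 CPM in colonic nodes and 211 ± 20.8 CPM in inguinal ones (0.48 ± 0.113, adjusted p = 0.00738). Hmox1, haem oxygenase, was lower, at 33.6 ± 4.24 CPM in colonic nodes and 63.3 ± 26.8 CPM in inguinal ones (-0.93 ± 0.205, adjusted p = 0.00364), and lost its call without inguinal library 2 (adjusted p = 0.0653). Of 18 tested, 4 were higher and 2 lower (3 or 4 and 1 or 2 with any 1 library left out), against 2.96% and 1.34% over all genes. The monocyte marker Ly6c2 was lower too (-0.98 ± 0.192, adjusted p = 0.000877), and so was Mmp12, the macrophage elastase, at 2.21 ± 0.367 CPM in colonic nodes and 7.3 ± 1.58 CPM in inguinal ones (-1.71 ± 0.316, adjusted p = 0.00045).

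Chemokine ligands differed in both directions. Ccl8 (chr11:82115185-82116799), a ligand of CCR8 in mice made by macrophages of skin and gut, measured 13.3, 2.28, 4.38, 4.13 and 5.9 CPM in colonic libraries, against 16.8, 27.8, 51.5, 53 and 73.8 CPM in inguinal libraries (-2.75 ± 0.342, adjusted p = 2.6e-07). Colonic library 1 came closest to the inguinal range, without overlap. The related Ccl12 averaged 3.1 ± 0.776 CPM in colonic nodes and 8.45 ± 4.88 CPM in inguinal ones (-1.40 ± 0.348, adjusted p = 0.011) and lost its call without inguinal library 3 (adjusted p = 0.0679). The B cell attractant of follicles, Cxcl13, measured 79.6, 71.2, 87.1, 60.2 and 65.1 CPM in colonic libraries, against 99, 134, 152, 134 and 109 CPM in inguinal libraries (-0.78 ± 0.141, adjusted p = 0.000308). Ccl6 was higher (0.97 ± 0.221, adjusted p = 0.00527). Of 28 tested chemokine ligands 2 were higher and 5 lower, against 2.96% and 1.34% over all genes, with a median of -0.089. With any 1 library left out, 1 to 3 were higher and 3 to 5 lower (1 higher without colonic library 2 and 3 lower without colonic library 1).

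Genes of follicular stroma differed in both directions. Grem1 (chr2:113746164-113758646), a BMP antagonist of lymph node reticular cells, measured 68.6, 59, 80.1, 69.9 and 92.8 CPM in colonic libraries, against 29.3, 27.8, 27.2, 27.2 and 31.7 CPM in inguinal libraries (1.36 ± 0.109, adjusted p = 1.89e-12). The inguinal libraries hardly varied. The alarmin Il33 (0.81 ± 0.138, adjusted p = 0.000145) and the bridging protein Mfge8 of follicular dendritic cells (0.58 ± 0.0916, adjusted p = 3.58e-05) were higher. Tnfsf13b, the B cell survival factor BAFF, was lower together with Cxcl13, at 6.67 ± 1.22 CPM in colonic nodes and 14.7 ± 2.53 CPM in inguinal ones (-1.12 ± 0.229, adjusted p = 0.0016). The count was 4 higher and 2 lower of 14 (3 or 4 higher and 2 lower with any 1 library left out).

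Some genes of connective tissue were higher in colonic nodes, which also held more adipose and mesothelial RNA. The proteoglycan Lum (chr10:97565128-97572703), which spaces collagen fibrils, measured 29, 30.2, 17.4, 20.2 and 21 CPM in colonic libraries, against 3.24, 5.96, 6.19, 3.12 and 4.27 CPM in inguinal libraries (2.37 ± 0.21, adjusted p = 4.21e-11). Gpc3 (chrX:52272426-52613950), a cell-surface proteoglycan, measured 15.2, 17, 11.5, 14.8 and 16.2 CPM in colonic libraries, against 0.705, 0.97, 2.41, 0.25 and 0.328 CPM in inguinal libraries (4.05 ± 0.407, adjusted p = 1.43e-09). Among adventitial fibroblast genes 6 of 14 were higher, 0 lower (4 to 7 higher with any 1 library left out), with Mfap5, a microfibril protein, at 2.73 ± 0.402 (adjusted p = 9.49e-06) and Cd248, endosialin, at 2.60 ± 0.427 (adjusted p = 6.56e-05). Of 30 tested collagens 6 were higher, such as Col12a1 (1.21 ± 0.149, adjusted p = 2.16e-07) and Col14a1 (1.40 ± 0.186, adjusted p = 1.12e-06), and 1 was lower, Col6a6 (-1.15 ± 0.248, adjusted p = 0.00282). The count of higher collagens was 4 to 6 with any 1 library left out.

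The neighbouring tissues can be read beside these genes. Of 16 tested adipose markers 10 were higher and Ucp1 was lower, and of 10 tested mesothelium markers 6 were higher. Adipoq, the fat hormone adiponectin, measured 181, 146, 76.3, 77.6 and 257 CPM in colonic libraries, against 3.39, 20.6, 71.1, 18.1 and 11.2 CPM in inguinal libraries (2.64 ± 0.664, adjusted p = 0.0123), and lost its call without colonic library 5 or inguinal library 1 (highest adjusted p = 0.0537). The adipose count ranged from 3, without inguinal library 1, to 12, and was 0 without colonic library 5 and inguinal library 5. Inguinal library 3, with an adipose sum of 1880 CPM, lay above colonic libraries 3 and 4 at 1610 and 1650 CPM. It held 6.19 CPM of Lum, where those 2 colonic libraries held 17.4 and 20.2 CPM. Of Gpc3 it held 2.41 CPM, where they held 11.5 and 14.8 CPM. It was also the highest inguinal library for both genes. The other inguinal libraries held 3.12 to 5.96 CPM of Lum and 0.25 to 0.97 CPM of Gpc3. Its mesothelium markers summed to 17.1 CPM, against 24.9 and 62 CPM in those 2 colonic libraries. For the mesothelial uroplakin Upk3b the colonic libraries held 16.2, 15.3, 4.25, 18.8 and 6.99 CPM, against 0, 1.39, 0.755, 0.125 and 0 CPM in inguinal libraries (4.79 ± 0.685, adjusted p = 5.65e-06). Retnla, a resistin-like secreted protein of alternatively activated macrophages and fat, followed at 27.3 ± 12.4 CPM in colonic nodes and 1.71 ± 1.31 CPM in inguinal ones (3.99 ± 0.492, adjusted p = 2.16e-07). The part of attached tissue in the connective tissue genes was not tested further. Ucp1, the uncoupling protein of brown and beige fat, was called (-4.98 ± 1.31, adjusted p = 0.0189) with 10.9 CPM in inguinal library 3 and 0 to 1.75 CPM in the other inguinal libraries. It lost its call without that library (adjusted p = 0.289) or without colonic library 3, 4 or 5.

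**Figure D3:**
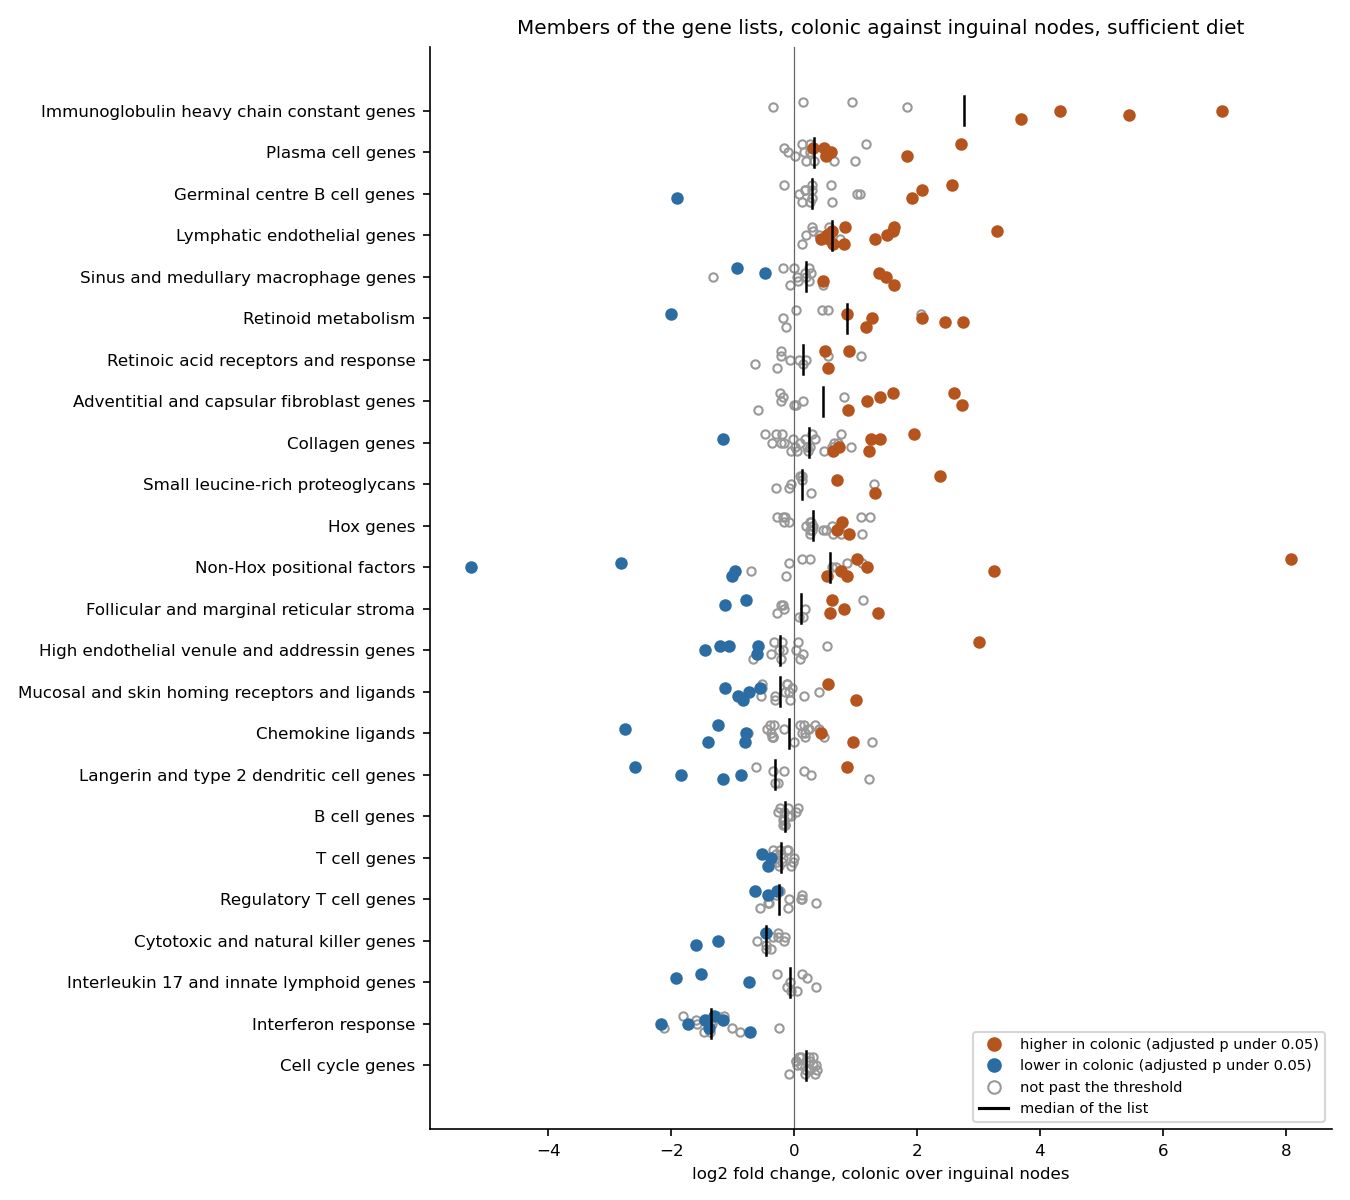
Log2 fold change of colonic over inguinal nodes for the tested members of 24 gene lists, filled where the adjusted p was under 0.05, with a bar at each list's median. Lymphatic endothelial genes all lie to the right (median 0.618), interferon response genes all to the left (median -1.35), and positional factors reach both ends of the axis.

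Interferon response genes had lower values in colonic nodes, and how many passed the test depended on the libraries. All 20 tested had a negative sign, with a median of -1.35, and 7 passed. Ifit3, an interferon-induced protein that restrains viral RNA, measured 20.8, 26.5, 11.6, 10.7 and 39.8 CPM in colonic libraries, against 29.1, 61.1, 136, 87.2 and 163 CPM in inguinal libraries. The female inguinal libraries 1 and 2 lay nearest to the colonic range, and library 1 overlapped with it (-2.17 ± 0.649, adjusted p = 0.0431). Oas3, a sensor enzyme of double-stranded RNA, measured 14.6, 18.8, 15.3, 8.12 and 16.3 CPM in colonic libraries, against 32.7, 26.9, 42, 51.7 and 79.6 CPM in inguinal libraries (-1.73 ± 0.471, adjusted p = 0.0233). The number of members called was 1 without inguinal library 5, up to 11 without another library, 0 in female libraries alone, 18 in male libraries alone, 14 with the replicate block, and 0 without colonic library 5 and inguinal library 5. Ifit3 lost its call without any of colonic libraries 1 to 4 or inguinal libraries 3 to 5 (highest adjusted p = 0.128), and Oas3 without colonic library 1 or 4 or inguinal library 4 or 5 (highest adjusted p = 0.108).

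The promoters of these 2 genes show the element through which interferon signals act. The 250 bases before the start are given 5′ to 3′ on the gene's strand (RefSeq, GRCm38.p6), Ifit3 at chr19:34583279-34583528 on the plus strand and Oas3 at chr5:120777660-120777909 on the minus strand, with capitals on the core, GAAA followed after any 2 bases by GAAA, or on the same core read from the other strand, TTTC and TTTC.
Ifit3: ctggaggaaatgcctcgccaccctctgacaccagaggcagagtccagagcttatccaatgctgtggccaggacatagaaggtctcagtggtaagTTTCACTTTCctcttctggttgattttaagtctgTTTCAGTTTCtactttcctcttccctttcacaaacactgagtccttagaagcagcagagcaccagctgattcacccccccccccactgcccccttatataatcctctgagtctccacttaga
Oas3: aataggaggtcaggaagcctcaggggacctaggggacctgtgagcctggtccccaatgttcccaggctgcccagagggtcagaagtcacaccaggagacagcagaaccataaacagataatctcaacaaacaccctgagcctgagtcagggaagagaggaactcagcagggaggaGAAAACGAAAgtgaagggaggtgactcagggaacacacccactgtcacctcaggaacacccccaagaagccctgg
Ifit3 holds 2 such cores and Oas3 holds 1. Across all 32851 promoters 2.98% hold at least 1, while of the 20 interferon response genes 13 have an entry and 8 of these hold it, a description of genes listed for this response. Of the 7 called members, 3 have an entry, and 2 of these, Ifit3 and Oas3, hold the core.

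Further single genes differed. Mcpt4, a protease of connective tissue mast cells, measured 0.545, 0.621, 0.548, 0.799 and 2.02 CPM in colonic libraries, against 2.82, 6.65, 7.85, 6.74 and 6.34 CPM in inguinal libraries (-2.74 ± 0.635, adjusted p = 0.00596). Slpi, a secreted inhibitor of leukocyte proteases, measured 61.3, 24.6, 32.5, 26.2 and 137 CPM in colonic libraries, against 3.1, 7.48, 1.66, 3.49 and 3.72 CPM in inguinal libraries (3.81 ± 0.591, adjusted p = 2.51e-05). Endothelial lipase, Lipg, averaged 2.31 ± 0.703 CPM in colonic nodes and 11.5 ± 4.17 CPM in inguinal ones (-2.34 ± 0.411, adjusted p = 0.000199). None of these groups overlapped. Markers of gut epithelium gave 0 calls of 8 tested and summed to 12.2 to 49.1 CPM in colonic and 13.2 to 19.4 CPM in inguinal libraries. The highest sum, in colonic library 5, held 39 CPM of Zg16 alone, against 0.274 to 1.36 CPM of it in the other colonic libraries. Zg16 was also highest among inguinal libraries in library 5, at 5.91 CPM.

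To place the colonic nodes among the gut-draining nodes, they were set against the mean of the duodenal, jejunal and ileal nodes of the same diet. This contrast uses the same colonic libraries, so it is not independent of the one above. It called 707 genes (3.91%), 219 higher (1.21%) and 488 lower (2.7%) in colonic nodes. Of 19 lymphatic endothelial genes, 0 were higher and 9 lower in colonic nodes, with a median of -0.586. Of 13 retinoid metabolism genes, 0 were higher and 4 lower (median -0.303). Of 8 heavy chain constant genes, 2 were higher and 0 lower (median 0.541). Aldh1a2 measured 29 to 75.4 CPM in small intestinal libraries, above the 13.3 to 20.2 CPM of colonic ones. For some of the 707 genes the colonic level sat close to the inguinal one. Il22ra2, a secreted decoy receptor that binds interleukin 22, measured 67.8, 60, 89.8, 66.7 and 91.1 CPM in colonic libraries, against 65.9, 71.5, 98, 68 and 94.2 CPM in inguinal libraries, with an interval of the difference of -0.53 to 0.36. It averaged 11.2 ± 4.92 CPM in duodenal, 12 ± 2.83 CPM in jejunal and 38.7 ± 10.6 CPM in ileal nodes, so colonic nodes were higher than small intestinal ones (2.11 ± 0.174, adjusted p = 1.05e-11). Bpifb3, of the BPI-fold family of lipid-binding proteins, averaged 5.44 ± 1.73 CPM in colonic nodes and 7.5 ± 2.36 CPM in inguinal ones, with an interval of -1.31 to 0.35, and was nearly absent from small intestinal nodes (5.12 ± 0.439, adjusted p = 2.22e-11).

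The stromal protease Mmp3 had the same pattern, at 7.45 ± 2.24 CPM in colonic nodes and 8.44 ± 3.7 CPM in inguinal ones (interval -0.63 to 0.30), against 1.44 ± 0.307 to 1.99 ± 0.667 CPM in small intestinal nodes (2.05 ± 0.191, adjusted p = 1.87e-10). Hoxc10 followed it (4.92 ± 0.367 over small intestinal nodes, adjusted p = 5.28e-12). In the other direction, Adgre1, which encodes the macrophage antigen F4/80, averaged 17 ± 4.08 CPM in colonic nodes and 16.8 ± 3.32 CPM in inguinal ones, with an interval of -0.40 to 0.39, and colonic nodes were lower than small intestinal ones (-1.99 ± 0.171, adjusted p = 2.22e-11). The guanylate-binding protein gene Gbp2b averaged 11.6 ± 5.06 CPM in colonic nodes and 8.37 ± 0.796 CPM in inguinal ones (interval -0.14 to 1.04), and 53.7 ± 7.9 to 90.6 ± 26.5 CPM in small intestinal nodes (-2.71 ± 0.251, adjusted p = 1.71e-10). Ccl8, although low in colonic nodes relative to inguinal ones, was above the small intestinal nodes, which averaged 0.94 ± 0.458 to 1.44 ± 0.551 CPM (2.33 ± 0.314, adjusted p = 1.99e-06). Timd4, a phosphatidylserine receptor of resident macrophages, had an intermediate level too, at 124 ± 16.5 CPM in colonic nodes and 173 ± 20.5 CPM in inguinal ones, above the 44.4 ± 6.24 to 59.6 ± 10.3 CPM of small intestinal nodes (1.23 ± 0.102, adjusted p = 1.05e-11). Its difference from inguinal nodes (-0.48 ± 0.13, adjusted p = 0.0241) was lost without colonic library 2 or 5 or inguinal library 3 or 5 (highest adjusted p = 0.0814).

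**Figure D4:**
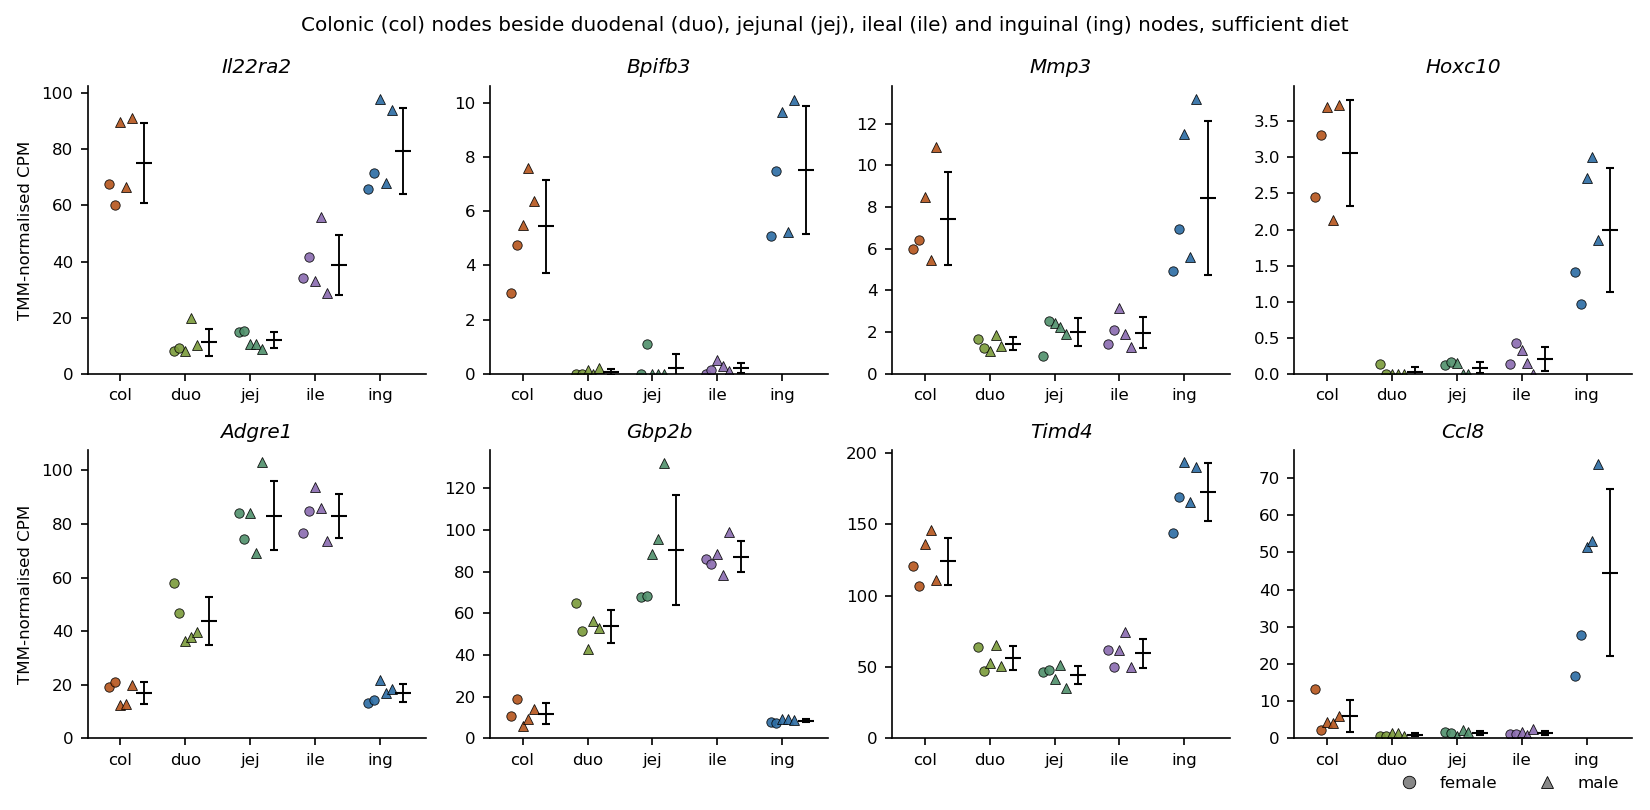
CPM of 8 genes in each library of the 5 nodes on the sufficient diet, colonic first and inguinal last, circles for females and triangles for males, with the mean and SD as a bar (n = 5). Il22ra2, Bpifb3, Mmp3 and Hoxc10 are high and Adgre1 and Gbp2b low in both colonic and inguinal nodes compared with the 3 small intestinal nodes, while Timd4 and Ccl8 are intermediate in colonic nodes.

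The same pair of nodes was compared on the deficient diet, in libraries not shared with the comparison above. There 359 genes (1.99%) were called, 248 higher (1.37%) and 111 lower (0.614%) in colonic nodes. Of the 535 genes higher on the sufficient diet, 137 (25.6%) were also called higher on the deficient diet, where they made up 55.2% of the higher calls, and 471 (88%) had the same sign. Of the 243 lower, 50 (20.6%) were also called lower, 45% of the lower calls there, and 177 (72.8%) had the same sign. Nkx2-3 averaged 8.6 CPM in colonic nodes and 0 CPM in inguinal ones of the deficient diet (adjusted p = 2.87e-17), and Madcam1 remained higher (2.45, adjusted p = 5.48e-10). Tbx15, Grem1, Lum and Ccl8 were called in the same direction as well, whereas interferon response genes gave 0 calls with a median of 0.0798, and Adipoq had a log2 fold change of 0.10 (adjusted p = 1).

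Whether the difference between colonic and inguinal nodes changed with the diet was tested by an interaction, the log2 fold change on the sufficient diet minus that on the deficient diet. It called 4 genes (0.0221%), all with a larger value on the sufficient diet. For Lrat the change was a reversal: 8.67 ± 2.22 CPM in colonic nodes and 1.59 ± 0.586 CPM in inguinal ones on the sufficient diet, and 0.866 ± 0.254 CPM in colonic nodes and 2.38 ± 0.843 CPM in inguinal ones on the deficient diet (3.90 ± 0.438, adjusted p = 4.37e-07). The plasma glutathione peroxidase Gpx3 averaged 50.7 CPM in colonic nodes and 60.2 CPM in inguinal ones on the sufficient diet, and 26.4 CPM in colonic nodes and 86.8 CPM in inguinal ones on the deficient diet (1.47 ± 0.274, adjusted p = 0.0275). Ccl22, a ligand of CCR4 made by dendritic cells, averaged 87.9 CPM in colonic nodes and 113 CPM in inguinal ones on the sufficient diet, and 49.2 CPM in colonic nodes and 133 CPM in inguinal ones on the deficient diet (1.07 ± 0.209, adjusted p = 0.0405). Ccl17, the other CCR4 ligand, followed at 3.32 CPM in colonic nodes and 3.04 CPM in inguinal ones on the sufficient diet, and 0.986 CPM in colonic nodes and 4.46 CPM in inguinal ones on the deficient diet (2.26 ± 0.449, adjusted p = 0.0405). For Aldh1a2 the interaction was not called (2.02, adjusted p = 0.242), although the colonic mean was 17.3 CPM on the sufficient and 2.33 CPM on the deficient diet. Without number 3, 4 or 5 in both diets 1 gene was called, and the replicate block gave 10. Since all deficient mice were female and came from other dams, litter cannot be told apart from diet, and sex is separated from it only through the sufficient libraries. The deficient libraries of both nodes also split by the gene Gm19220. It made up 1.03 to 1.52% of counts in numbers 2, 3 and 5 and 7.63 to 9.26% in numbers 1 and 4. In the 10 sufficient libraries it made up 5.37 to 8.76%. The part of this split in the deficient comparison and the interaction was not tested.

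**Figure D5:**
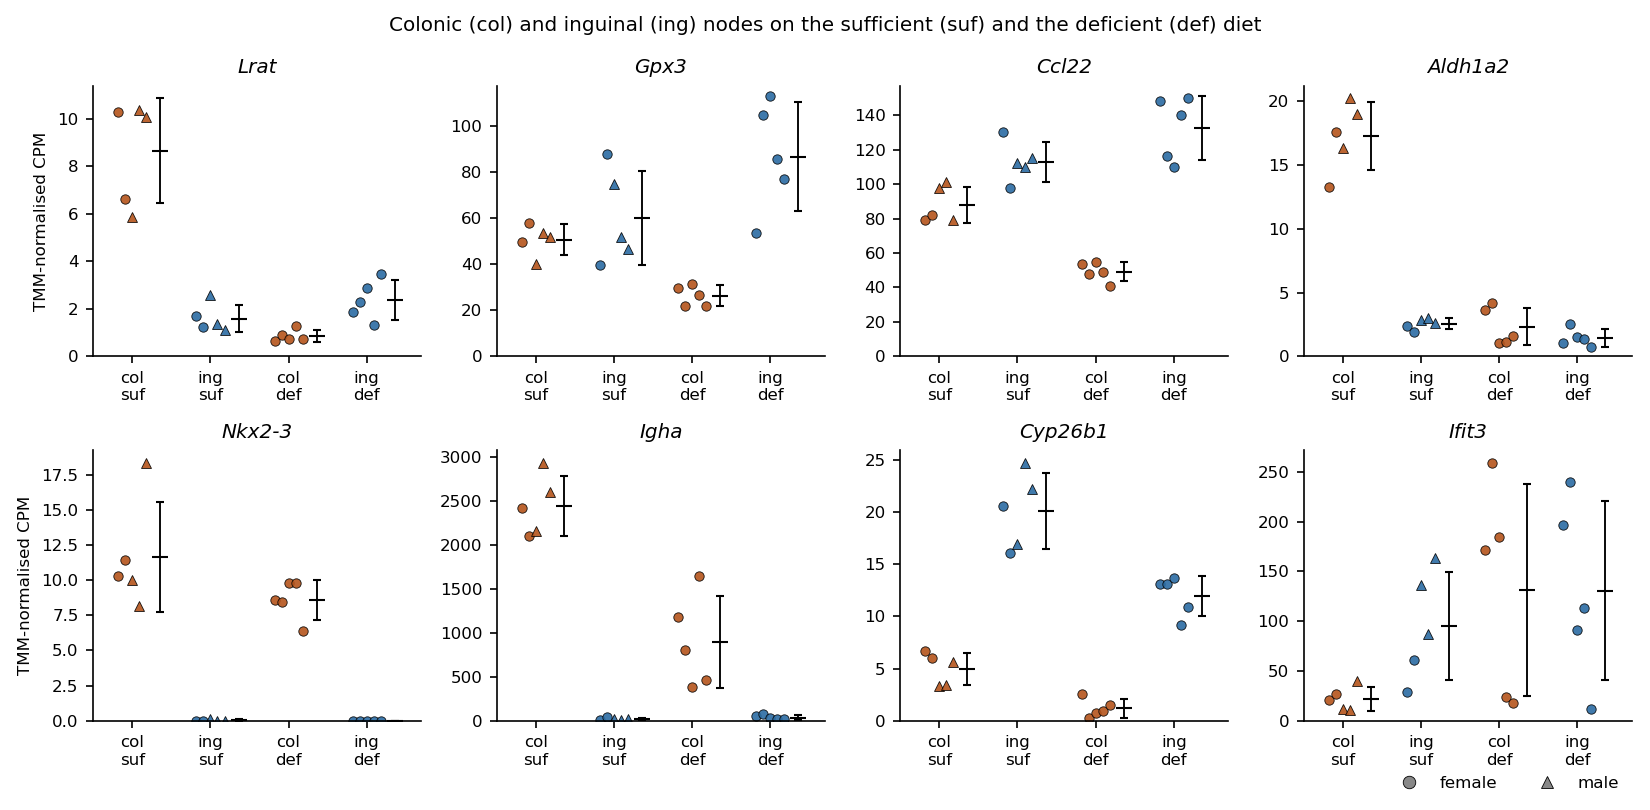
CPM of 8 genes in each colonic (col) and inguinal (ing) library on the sufficient (suf) and the deficient (def) diet, circles for females and triangles for males, with the mean and SD as a bar (n = 5). Lrat is high only in colonic nodes of the sufficient diet among these 4 groups, Nkx2-3 is near 0 in inguinal nodes on both diets, and Ifit3 varies widely on the deficient diet.

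A last contrast asked whether the difference between the nodes depended on sex, in the sufficient libraries alone. It called 0 of 18252 genes (0%) in edgeR, with 868 at an unadjusted p under 0.05 and 6 called by DESeq2. With 2 females and 3 males per node, this does not show that the sexes were alike.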

How the data were processed

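RNA of whole lymph nodes was sequenced after poly(A) selection, per the labels' protocols. The authors deposited 1 table of estimated counts per gene, and the submitters' processing notes name kallisto, limma, edgeR, GRCm39 and mm10 without roles or versions. Only 0.122% of values above 0 were whole (within 1e-06), so the estimated counts were rounded. The table has 56600 entries, 379 of them without a gene name, and 51486 identifiers matched GENCODE M21, the source of the GRCm38 positions. Promoters came from RefSeq. The 10 libraries compared held 5335369 to 8904722 estimated counts; the counting interval of a ratio covers counting error only. Deficient columns that the titles did not name in full were assigned to the deficient group of their node.

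All 50 libraries in 10 groups of diet and node were fitted with a sex term in edgeR 4.0.16 (R 4.3.3), with TMM scaling and filterByExpr, which left 18077 genes. The quasi-likelihood test was adjusted by Benjamini-Hochberg with a threshold of 0.05. Standard errors were taken from the fold change and the F statistic. The sex interaction was fitted on the 25 sufficient libraries. Alternatives were RLE scaling, 2 other filters, limma-voom (limma 3.58.1), DESeq2 1.42.0, other covariates and subsets of libraries, and each library left out. The removal of the 2 libraries with over 100 CPM of pancreatic genes was chosen after seeing the data.

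Same-numbered colonic and inguinal libraries deviated together from their group means (correlations 0.435, 0.182, 0.103, 0.168 and 0.329), each above 0.1, although for number 3 another pairing reached 0.213 and for number 4 another reached 0.173. By the first criterion the number was also fitted as a replicate block, which gave 1052 calls. Libraries of the same number also shared their sex. The deviations were taken without removing sex, beyond leaving out some sex-linked genes, so the correlations can include it. The labels do not tie a number to a mouse, and p-values measure the spread between these libraries. On simulated counts for this comparison (17806 genes) the test recovered 77 of 100 genes changed by 1 log2 unit and 40 of 100 changed by 0.5, and 1.68% of calls were unchanged genes. Only genes with a mean of at least 1 CPM were changed. The simulated libraries were independent, with no sex effect, no deviation shared by number and no attached tissue, so these rates need not hold in the data. Named genes are the 10 largest changes per direction with a mean of at least 5 CPM in the higher group, up to 5 members of each of 42 gene lists, 23 set genes and up to 5 genes per direction of each other comparison. Most of those printed were drawn from these. Others, such as Stab2, Foxc2, Twist1, Ucp1, Ighm, Ighg2c and Ccl17, were added outside this rule. The comparison, lists and rule were chosen with earlier results of these data known. Results for some genes are not reported here.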

Additional observations from a re-analysis of the deposited data

Results flagged for a closer look

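In groups of 5 libraries, 25 of 368 pairs of a group with a gene or list sum (6.79%) had 1 library far from the other 4. The rule would flag about 1 in 20 for independent normal values. Skewed CPM values and sums that share genes do not meet this, so no excess can be read from the share. Colonic library 5 was the high one for Hsp90b1 (942 CPM), Mcpt4 (2.02 CPM), the eosinophil gene Prg2 (5.28 CPM) and the sums of plasma cell genes (3280 CPM), gut epithelium markers (49.1 CPM) and pancreatic acinar markers (3450 CPM), and the low one for Ighd (482 CPM). Zg16 alone gave 39 CPM of that gut epithelium sum. Inguinal library 3 was the high one for Adipoq (71.1 CPM), Cidec (57.2 CPM), Lpl (195 CPM), Ucp1 (10.9 CPM), Nkx2-3 (0.151 CPM) and the sum of adipose markers (1880 CPM). For Nkx2-3 this was 1 count against 0 in the other inguinal libraries.

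In colonic library 1, Ighv1-7 reached 552 CPM and type 1 dendritic cell genes summed to 1300 CPM, and in colonic library 2 Clec4g reached 20.1 CPM. In inguinal library 1, Ighe was high (3.24 CPM), and Nr2f2 was low (18.6 CPM). The sum of cell cycle genes in inguinal library 1 was 651 CPM. Inguinal library 2 was high for Jchain (226 CPM), Ighg3 (77.6 CPM), Ogn (9.56 CPM) and the sum of mesothelium markers (36.4 CPM). That sum held 21.3 CPM of Krt19 and 1.39 CPM of Upk3b. The mammary and skin epithelium markers Krt8 (20.9 CPM) and Krt18 (14 CPM) were also high in that library. Inguinal library 5 stood apart for Cxcr6 (39.2 CPM) and the sum of pancreatic markers (291 CPM).

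The difference between colonic and inguinal nodes itself differed between the sufficient and the deficient diet, by the interaction test in edgeR, for Lrat (3.90), Ccl17 (2.26), Gpx3 (1.47) and Ccl22 (1.07) on the log2 scale.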

How the results depend on the processing

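A set of 142 genes, which is not the same as the named genes, was followed through the alternatives. Of the 122 of them called, 74 kept their call with each library left out, 98 lost it under at least 1 of all alternatives and 0 reversed. For colonic against inguinal nodes on the sufficient diet, leaving out 1 library gave 514 to 805 calls, 333 to 575 higher and 141 to 230 lower. Female libraries alone gave 140 calls (112 higher and 28 lower) and male libraries alone 276 (138 and 138), fits with fewer samples. Without colonic library 5 and inguinal library 5, 359 were called, 265 higher and 94 lower. The replicate block raised the lower calls to 377. The 10 libraries compared alone gave 352 higher calls, and 346 with the replicate block. Higher calls made up 68.8% as reported, 80% in females, 50% in males and 58.2% in the 10 libraries with the block. In the fit of all libraries the block added Ighg3 and ended the call of Nuggc (adjusted p = 0.0534) among those 142 genes. In the 10 libraries with the block, of the genes printed in the report, Aldh1a3 (adjusted p = 0.0517), Ccl6 (0.0733), Col6a6 (0.0842), Gzma (0.0513), Gpr15 (0.0925), Adipoq (0.0527), Ffar2 (0.0842), Hoxc4 (0.138) and Hoxc6 (0.0956) were not called. In the 10 libraries without it, Irx3 (0.0528), Gpr15 (0.058), Itgae (0.068), Foxp3 (0.101), Hmox1 (0.058), Ighe (0.0577), Ffar2 (0.0858), Hoxc4 (0.188) and Hoxc6 (0.0666) were not. Of the genes printed only among the flagged results, Cidec, Prg2 and Nr2f2 were not called in the 10 libraries with the block. Prg2 and Nr2f2 were not called in them without the block either. The diet interaction gave 8 calls with no filter, 2 in limma-voom, 23 in DESeq2, 10 with the replicate block and 1 to 4 without a replicate number. The sex interaction gave 244 with no filter, 6 in DESeq2 and 0 to 1 without a number. Without a number, 221 to 288 genes were called on the deficient diet and 403 to 622 against small intestinal nodes. The cause of these shifts was not tested. Low counts limit what can be said of genes under about 1 CPM.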
